A study of Arabidopsis thaliana with 3 samples.

Results

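A group of 22 probe sets gave bright and nearly equal signals in Arabidopsis thaliana seed in 3 states, out of 22746 probe sets on the array that are not controls. They were chosen by their own signals: after the 3 arrays had been set to the same 2% trimmed mean, each gave a scaled signal of at least 300 on all 3 arrays, and the highest of its 3 signals was at most 1.5 times the lowest. Genes for cytosolic ribosomal proteins, plastid-encoded genes and isocitrate lyase (ICL) were left out by the same rule. The signals and their ratios are therefore a description, and that they are bright and steady is not a finding.

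RNA came from seed of ecotype Columbia, and each state was measured on 1 Affymetrix ATH1 array, without replicates. The first state is seed imbibed for 3 days on Murashige and Skoog agar with trichostatin A (TSA), a compound that blocks enzymes removing acetyl groups from histones. Its dose is given as 10 µM in the label of the treated sample but as 10 mM in the treatment protocol, and this conflict was not resolved. The second state is seed imbibed for 3 days on the same medium without TSA, and the third is unimbibed, dry seed. All seed was surface sterilized, and germination took place under a long photoperiod. With 1 array per state no test was possible and no p-value is given.

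Germination replaces much of the stored messenger RNA of the dry seed with transcripts of the growing seedling. Some genes of basic cell functions serve as references for other measurements, on the premise that their transcripts hold their share. With trimmed means set equal, most measured genes of mitochondrial energy conversion and of the cytoskeleton were at least 2-fold higher on imbibition, as given below. Calls among the measured reference genes were near the background shares on imbibition. Equal signal on arrays scaled to each other means an equal ratio to the trimmed mean. It does not mean an equal share of all signal or an equal amount per seed or per cell. In whole seed, fewer cells of a type and less RNA per cell cannot be told apart.

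Of the 22 probe sets, 4 are paired with 1 gene by the platform annotation, 2 with several genes and 16 with none. The 4 named genes are UBC28, an E2 ubiquitin-conjugating enzyme, AT1G76200, a subunit of mitochondrial complex I, AT1G53210, which encodes the sodium and calcium exchanger NCL, and AT1G16180, a membrane protein of the Serinc family. Both probe sets with several genes are paired with the same 3 loci, all known as genes of histone H3.3. The 16 unpaired probe sets are unnamed here, not without a gene, so it could not be checked whether any of them belongs to a class that the rule leaves out. Pairing with no gene applied to 72.7% of the 22, against 55.8% of the probe sets that were bright on all 3 arrays and 38.4% of all 22746.

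UBC28 belongs to the E2 enzymes, which carry activated ubiquitin to the ligases that mark proteins for the proteasome. Its probe set gave a scaled signal of 700.9 in TSA-treated seed, 622.7 in untreated imbibed seed and 679.7 in unimbibed seed. The highest of these was 1.126 times the lowest, and among the members with a gene name it was the steadiest. Its log2 ratio was 0.17 for TSA-treated over untreated imbibed seed and -0.13 for untreated imbibed over unimbibed seed. It ranked 250 from the brightest probe set with TSA, 307 without TSA and 289 in dry seed.

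The other measured E2 enzymes, a family chosen after the values had been seen, show how UBC28 stood among its relatives. Of 12 E2 genes with a probe set of their own, 10 were above a floor of 10.7 (the 40th percentile of all scaled signals, below which signals were raised to it) on at least 1 of the imbibed and dry arrays. UBC28 was the 1 that reached 300 on all 3 arrays. Untreated imbibed over unimbibed seed, 1 of the 10 was at least 2-fold higher and 3 were at least 2-fold lower, against 22.6% and 21.1% of all measured probe sets. With 10 genes, these counts are near the background shares. The median log2 ratio of the 10 was -0.38. In the following 3 cases 11 genes passed the floor, and their median was 0.22 before any scaling and 0.27 when the arrays were scaled on hybridisation controls, transcripts added in fixed amount before hybridisation. Scaled on poly-A controls, transcripts added to the RNA before labelling, it was 1.04, and 6 of the 11 were at least 2-fold higher and 0 lower.

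Some E2 genes other than UBC28 did not hold one level. Relatives without a probe set of their own could not be read singly. UBC30, of the E2 subgroup of UBC28, had a signal of 158.5 with TSA, 134.7 without it and 626.2 in dry seed. It was at least 2-fold lower in both imbibed states than in dry seed. Both calls were lost with poly-A controls set equal. UBC29, also of that subgroup, had 83.2 with TSA, 46.2 without it and 24 in dry seed. UBC32, an E2 of the endoplasmic reticulum, had 85.2, 66.5 and 273.6 in the same order, with a log2 ratio of -2.04 for untreated imbibed over unimbibed seed. UBC20, an E2 of the cell cycle, was the 1 E2 gene past 2-fold higher on imbibition, with 69.0 in untreated imbibed seed against 17.8 in unimbibed seed, and it fell to 23.3 with TSA (log2 ratio -1.57 over untreated imbibed seed).

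Dimmer E2 genes were steady too. UBC19, which is close in sequence to UBC20, had signals of 98.4 with TSA, 98.3 without it and 83.6 in dry seed, a highest over lowest of 1.177. UBC27 had 81.6, 104.3 and 96.8 in the same order. A probe set shared by UBC35 and UBC36, E2 enzymes that build chains linked through lysine 63 of ubiquitin, had 308.7 with TSA, 286.2 without it and 350.8 in dry seed and so missed the minimum of 300 on 1 array.

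Histone H3.3 is the form of histone H3 that is laid into chromatin outside DNA replication, while H3.1 is laid in during replication. A probe set paired with the 3 H3.3 loci, 252824_at, gave 817.7 with TSA, 669.3 without it and 836.1 in dry seed. Another, 250397_at, gave 425.2 with TSA, 524.7 without it and 544.2 in dry seed. In the first the TSA-treated signal was above the untreated one (log2 ratio 0.29), and in the second it was below (-0.30). Both sets carry the same 3 loci in the annotation, and which of these each set reads cannot be told from it.

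A further H3.3 probe set, 252849_at, lay just beyond the steadiness limit. Its signals were 691.3 with TSA, 694.3 without it and 1072.4 in dry seed, with a highest over lowest of 1.551. All 3 sets were lower in untreated imbibed than in unimbibed seed, with log2 ratios of -0.05 to -0.63, and none passed 2-fold in that comparison or with TSA. The sign of the imbibition ratios turned for all 3 with signals as deposited and with either set of control transcripts set equal, and with the poly-A controls set equal all 3 were at least 2-fold higher.

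The probe sets paired with H3.1 genes did not share this pattern. There were 5, each paired with the same 5 loci and thus not separable by gene, and none reached 300 on any array. Untreated imbibed over unimbibed seed, 4 of the 5 were at least 2-fold higher and 1 was lower, beside 22.6% and 21.1% of all measured probe sets. Their median log2 ratio was 2.70, and 264262_at had 187.8 in untreated imbibed seed against 11.9 in unimbibed seed. The 1 that was lower, 257714_at, had 41.8 in untreated imbibed seed against 133.6 in unimbibed seed. Sets paired with the same loci thus differed in direction, and which of the loci each set reads cannot be told from the pairing. That lower call was lost with signals as deposited and with either set of controls set equal.

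TSA-treated over untreated imbibed seed, 4 of the 5 H3.1 sets were at least 2-fold lower and none was higher, against 9.51% and 10.4% of all measured probe sets. Their median log2 ratio was -1.29, and it stayed below 0 under all 6 other scalings, between -1.26 and -1.72. The fifth, 247192_at, had 134.7 with TSA and 243.7 without it. The difference between the H3.3 and H3.1 sets has no test here, because each ratio rests on 1 array per state.

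AT1G76200 encodes a small subunit of complex I, the proton-pumping NADH dehydrogenase of the inner mitochondrial membrane. Its signals were 382.1 with TSA, 417.3 without it and 458.5 in dry seed. They were highest in dry seed and lowest with TSA, with a highest over lowest of 1.2 and log2 ratios of -0.13 for TSA-treated over untreated imbibed seed and -0.14 for untreated imbibed over unimbibed seed.

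Many other nuclear complex I genes were at least 2-fold higher after imbibition. A list of 39 such genes was written after the values had been seen. Probe sets paired with a single one of them covered 25, and 12 of the 25 were at least 2-fold higher in untreated imbibed than in unimbibed seed while 0 were lower, beside 22.6% and 21.1% of all measured probe sets. Their median log2 ratio was 0.96, against -0.13 over the 10756 probe sets with both signals above the floor, and it lay between 0.71 and 2.64 under the other scalings, with 9 to 25 genes at least 2-fold higher. AT1G76200 was 1 of 2 with a ratio below 0, and no complex I gene was below 0 with signals as deposited or with either set of controls set equal.

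With TSA most complex I signals were lower by less than 2-fold. The median log2 ratio over untreated imbibed seed was -0.57, 24 of 25 were below 0 and 2 were at least 2-fold lower, or 13 with poly-A controls set equal. The 2 of 25 are near the 9.51% of all measured probe sets that were lower. The subunit gene AT2G20360 had the highest ratio of the 25 on imbibition, a log2 ratio of 2.35. Its signals were 232.7 with TSA, 389.2 without it and 76.3 in dry seed. AT4G02580, a subunit of the NADH-oxidising arm, had the lowest TSA ratio of the 25, at -1.08. Its signals were 186.3, 394.4 and 93.3 in the same order.

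A few complex I genes came close to meeting both limits. AT3G03070 had signals of 340.9 with TSA, 418.4 without it and 297.7 in dry seed, and missed the brightness minimum on 1 array by a small margin. AT3G03100 had 257.9, 386.7 and 383.4 in the same order and missed it with TSA. AT5G11770, a subunit that holds an iron-sulphur cluster, was bright on all 3 arrays, with 446.4, 745.9 and 588.8, and missed the steadiness limit with a highest over lowest of 1.671.

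**Figure D1:**
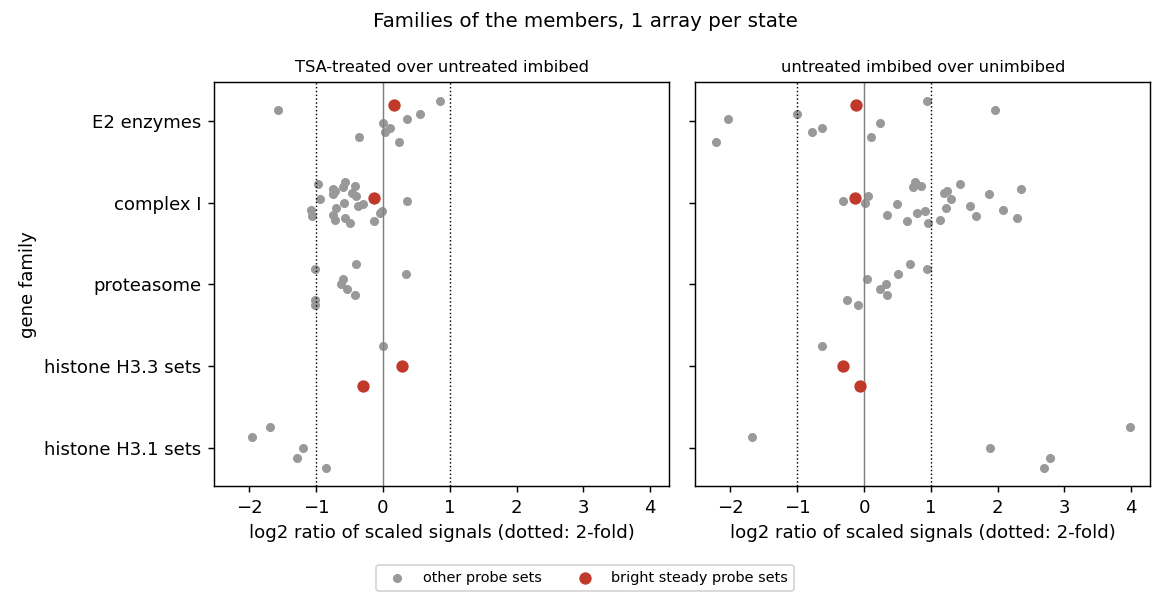
Each point is the log2 ratio of a probe set, for TSA-treated over untreated imbibed seed on the left and untreated imbibed over unimbibed seed on the right, by gene family, with 1 array per state and signals below the floor of 10.7 raised to it. As the rule fixes, the bright steady members, in red, lie within 1.5-fold in both panels. Most complex I points lie to the right of 0 on imbibition, and all 5 H3.1 sets lie to the left of 0 with TSA.

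AT1G53210 encodes NCL, an exchanger of sodium and calcium. Its signals were 490.0 with TSA, 403.8 without it and 352.0 in dry seed. This is an order shared by 5 of the 22 members, highest with TSA and lowest in dry seed, and the highest over lowest was 1.392. Another 12 cation exchanger genes were listed after the values had been seen. The 1 of them that could be measured was AT5G17850, which had 28.9 with TSA, 13.3 without it and 499.8 in dry seed.

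AT1G16180 encodes a membrane protein of the Serinc family, named for the incorporation of serine into membrane lipids, a role assigned in mammals. It had 464.4 with TSA, 403.6 without it and 392.1 in dry seed, with a highest over lowest of 1.184. Its relative AT3G06170 had 52.9 with TSA, 20.5 without it and 198.9 in dry seed. AT3G06170 and AT5G17850 were thus lower in untreated imbibed than in unimbibed seed and higher with TSA than without it, by at least 2-fold each. Of all measured probe sets, 21.1% were lower on imbibition and 10.4% higher with TSA by that measure. The untreated signals of 20.5 and 13.3 were not far above the floor of 10.7. AT1G16180 and AT1G53210 were chosen by the rule to lie within the limit, so nothing is read from the contrast.

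The loci of all 4 named members lie on chromosome 1 by their locus tags. Of the 58 probe sets bright on all 3 arrays and paired with 1 gene, 25.9% have a locus there, as do 25.5% of all 13513 probe sets paired with 1 gene. The adjoining protein-coding genes with a probe set of their own were dimmer than the named members. Their mean scaled signal was 42.8 for AT1G16170 beside AT1G16180, 13.4 for AT1G53200 beside AT1G53210 and 1.5 for AT1G76210 beside AT1G76200. With 4 genes, this is a description of position only.

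The members without a gene name hold the brightest and the steadiest of the group. The brightest, 258433_at, gave 2274.4 with TSA, 2686.4 without it and 2549.2 in dry seed. It ranked 32, 12 and 80 from the top in the same order, so a nearly equal scaled signal stood lower in the order of dry seed. The steadiest, 258649_at, gave 463.4 with TSA, 482.2 without it and 475.3 in dry seed, a highest over lowest of 1.040, and was the 1 member within 1.1.

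The next 3 in brightness also lacked a name. 253826_s_at had 1705.9 with TSA, 1507.0 without it and 1414.8 in dry seed. 249176_at had 1462.5, 1253.0 and 1257.3 in the same order, and 253201_at had 1161.1, 1050.1 and 994.3. In all 3 the TSA-treated signal was the highest, by a highest over lowest of 1.206, 1.167 and 1.168.

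Members with a mean signal of 500 to 1000 numbered 7, of which 5 had no name. Dry seed was highest for 260746_at, with 962.4 with TSA, 741.5 without it and 1058.4 in dry seed, and for 254227_at, with 539.3, 601.3 and 774.2 in the same order. It was also highest for 261149_s_at, with 590.2, 474.2 and 636.4. Untreated imbibed seed was highest for 264372_at, with 558.8 with TSA, 649.4 without it and 599.3 in dry seed, and for 256385_at, with 459.3, 642.6 and 612.6.

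The remaining unnamed members were dimmer. A peak in untreated imbibed seed and a peak in dry seed both recurred among them. 245249_at had 465.0 with TSA, 565.8 without it and 456.7 in dry seed, and 258366_at had 465.0, 548.7 and 424.0. 252670_at had 416.2 with TSA, 395.8 without it and 539.3 in dry seed, and 253898_s_at had 356.0, 367.8 and 434.7. The 2 closest to the brightness minimum were lowest in dry seed: 247658_at had 432.7 with TSA, 454.9 without it and 308.8 in dry seed, and 253868_at had 432.1, 375.6 and 319.9.

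**Figure D2:**
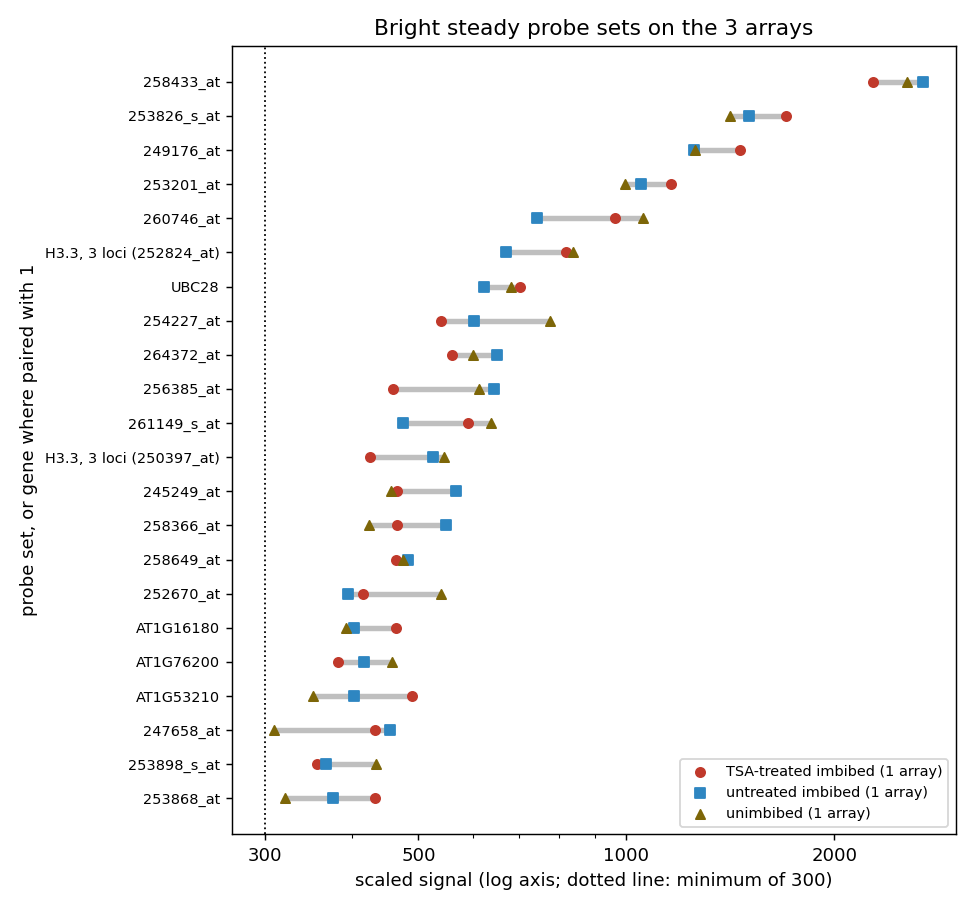
Scaled signal (log axis) of each of the 22 bright steady probe sets on the TSA-treated, untreated imbibed and unimbibed arrays, 1 array each, with grey bars joining the lowest to the highest signal. The members run from a mean of 375.8 to a mean of 2503.3, and the state with the highest signal changes from row to row.

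The highest signal was on the TSA-treated array for 7, on the untreated imbibed array for 7 and on the unimbibed array for 8. Summed over the members the scaled signal was 16024 with TSA, 15838 without it and 16118 in dry seed, or 1.23%, 1.23% and 1% of all scaled signal. The rule itself keeps such sums and counts close, and as deposited no member was highest in dry seed.

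Within the limit the members still differed from each other. TSA-treated over untreated imbibed seed, their log2 ratios ran from -0.48 to 0.38 with a median of 0.01, and 11 were above 0 and 11 below. Untreated imbibed over unimbibed seed, they ran from -0.51 to 0.56 with a median of 0.03, and 12 were above 0 and 10 below. TSA-treated over unimbibed seed, they ran from -0.52 to 0.49 with a median of -0.03, and this comparison shares its arrays with the other 2. None passed 2-fold in any comparison, as the rule fixes, against 23.3% higher and 23.0% lower of all measured probe sets for TSA-treated over unimbibed seed.

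These differences can be set beside the noise of the arrays. The 18 hybridisation controls had log2 ratios with an SD of 0.14 for TSA-treated over untreated imbibed seed and 0.17 for untreated imbibed over unimbibed seed. The 27 poly-A controls had SDs of 0.21 and 0.25 in the same comparisons. Over the 22 members the SD was 0.24 and 0.28. Among probe sets that share a locus the SD was 0.38 in the first comparison (49 loci) and 0.75 in the second (41 loci). The steadiness limit of 1.5-fold is 0.58 on the log2 scale. It bounds the whole range of a member and so also holds down the SD over the members. The SD of probe sets that share a locus has no such bound and covers any brightness above the floor. None of these SDs holds the variation between batches of seed.

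Before genes were left out, 24 of the 163 probe sets that reached 300 on all 3 arrays met the steadiness limit, or 14.7%, and they were 0.106% of all probe sets. The rule used these values, so nothing is read from the share. The 2 left out were ICL and the plastid-encoded clpP. The 31 cytosolic ribosomal protein probe sets among the 163 all lay beyond the limit. These are the ones with a gene name, and 91 of the 163 have none. Of the 139 beyond the limit, 30 had a highest over lowest of up to 2, 89 of over 2 and up to 4, and 20 of over 4.

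Bright probe sets beyond the limit were most often highest in untreated imbibed seed. That array held the highest signal of 86 of the 139, against 17 for the TSA-treated array and 36 for the unimbibed one. The 139 had a median log2 ratio of -0.84 for TSA-treated over untreated imbibed seed and 0.87 for untreated imbibed over unimbibed seed. Over all probe sets with both signals above the floor the medians were -0.02 and -0.13. The 139 include the 31 cytosolic ribosomal protein probe sets. The count of highest arrays was not made over all probe sets or under the other scalings.

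**Figure D3:**
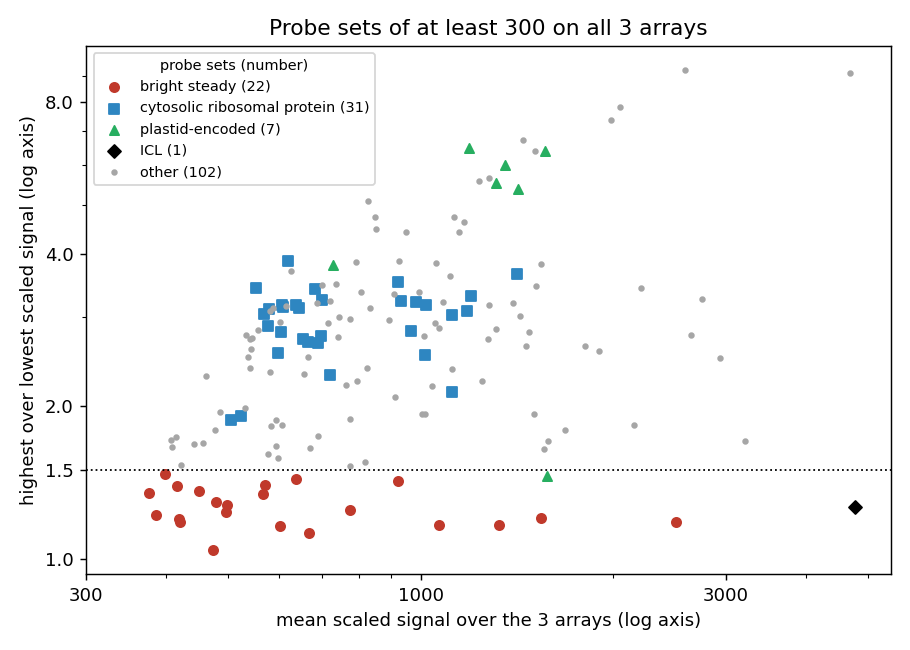
Highest over lowest scaled signal against the mean scaled signal (both log axes) of the 163 probe sets that reached 300 on all 3 arrays, 1 array per state, with the limit of 1.5 dotted. The 22 members lie below the line with ICL and 1 plastid-encoded probe set, and the 31 probe sets paired with ribosomal protein genes lie above it.

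Of 9806 probe sets above the floor on all 3 arrays, 18.0% met the limit of 1.5. By mean signal the share was 31.7% below 30, 15.8% from 30 to 100, 8.14% from 100 to 300, 5.48% from 300 to 1000 and 5.17% from 1000 up. The last class holds 116 probe sets, of which 6 met the limit, and the floor narrows the ratios that dim probe sets can show. A probe set that is high in 1 state enters a brighter class through its own difference, so no relation with brightness is read from these shares.

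Probe sets just outside the limits resemble those inside. RBP45B, an RNA-binding protein, had 350.0 with TSA, 380.2 without it and 536.1 in dry seed and a highest over lowest of 1.532, against 1.473 for the least steady member, 247658_at. AILP1 had 513.9, 401.9 and 308.8 in the same order, with 1.664. Below the brightness minimum, AT3G27770 had 293.3 with TSA, 335.3 without it and 420.9 in dry seed, and AT4G35750 had 311.9, 278.6 and 359.7.

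EIF4A-2, an RNA helicase of translation initiation, also fell short of the minimum. It had 262.7 with TSA, 299.1 without it and 338.8 in dry seed. A probe set paired with the 4 loci of elongation factor 1α was far brighter, with 2499.8, 4279.8 and 2864.4 in the same order, and missed the steadiness limit at 1.712. The initiation factor gene AT5G54940 had 1012.6 with TSA, 145.2 without it and 715.9 in dry seed.

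Basic cell functions were looked up in 14 lists with 337 entries, of which 60 loci, some counted in more than 1 list, could be told apart on the array. The entries without one could not be measured. A member was found in 1 of the 14 lists, that of ubiquitin and SUMO, where UBC28 was the 1 entry with its own probe set. Across the lists 6 probe sets of list genes, counted once per list, reached 300 on all 3 arrays.

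Several other basic functions were higher after imbibition, beside the background of 22.6% of all measured probe sets. In untreated imbibed over unimbibed seed, 8 of 9 measured genes of mitochondrial energy conversion were at least 2-fold higher, with a median log2 ratio of 1.76. The same held for 7 of 9 cytoskeleton genes, with a median of 2.44, and for 3 of 3 chaperone genes. TSA-treated over untreated imbibed seed, 5 of the 9 mitochondrial genes were at least 2-fold lower and none was higher, beside 9.51% and 10.4% of all measured probe sets. None of these genes met both limits.

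Genes in common use as references for measuring expression were not among the named members, and whether an unnamed member is one could not be checked. Of 19 such genes 10 could be measured singly, 2 of them above the floor and within the limit of 1.5, against 18.0% of the 9806 probe sets above the floor on all 3 arrays. They were AT5G46630, a subunit of a clathrin adaptor, with 81.9 with TSA, 76.1 without it and 60.2 in dry seed, and AT2G32170, with 36.2, 37.3 and 52.6 in the same order. GAPC2, a glycolytic enzyme, was the 1 that reached 300 on all 3 arrays, and it had 1670.4 with TSA, 2902.3 without it and 1125.8 in dry seed. It was at least 2-fold higher in untreated imbibed than in unimbibed seed. In that comparison 2 of the 10, GAPC2 among them, were higher and 1 was lower, beside 22.6% and 21.1% of all measured probe sets. With poly-A controls set equal 9 were higher. TSA-treated over untreated imbibed seed, none of the 10 passed 2-fold, but 3 were lower with poly-A controls set equal.

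The proteasome, which takes up the proteins that E2 enzymes help to mark, is a complex of many subunits. None of its 9 measured subunit genes was 2-fold higher or lower in untreated imbibed than in unimbibed seed, beside 22.6% and 21.1% of all measured probe sets, with a median log2 ratio of 0.32, though 5 were higher with signals as deposited or hybridisation controls set equal and all 9 with poly-A controls set equal. TSA-treated over untreated imbibed seed, 3 of the 9 were lower by little over 2-fold, with a median of -0.60, beside 9.51% of all measured probe sets, and none was with signals as deposited. AT5G23540, a deubiquitinase of the proteasome lid, had 99.7 with TSA, 202.8 without it and 241.5 in dry seed. AT4G24820, a further lid subunit, had 181.3, 242.5 and 190.5 in the same order and met the limit of 1.5.

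Which probe sets count as steady depended on how the arrays were set equal. The scale factors were 0.859 for the TSA-treated array, 0.877 for the untreated imbibed array and 1.437 for the unimbibed array, so the dry-seed signals were raised most. As deposited, UBC28 had 816.0 with TSA, 709.8 without it and 473.0 in dry seed. As deposited, 4 of the 22 met the limit, and all 22 were higher in untreated imbibed than in unimbibed seed, with a median log2 ratio of 0.74. With the hybridisation controls set equal 5 met it, and with the poly-A controls set equal 0 did, with a median of 1.71.

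The TSA comparison was less dependent on the scaling. The median log2 ratio of the 22 for TSA-treated over untreated imbibed seed stayed between -0.06 and 0.07 under 5 of the 6 other scalings and was -0.42 with the poly-A controls set equal, where all 22 were below 0. The median over all probe sets above the floor moved with it, to -0.43. Differences between members do not depend on a scale factor, and their span in this comparison was 0.86 on the log2 scale.

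**Figure D4:**
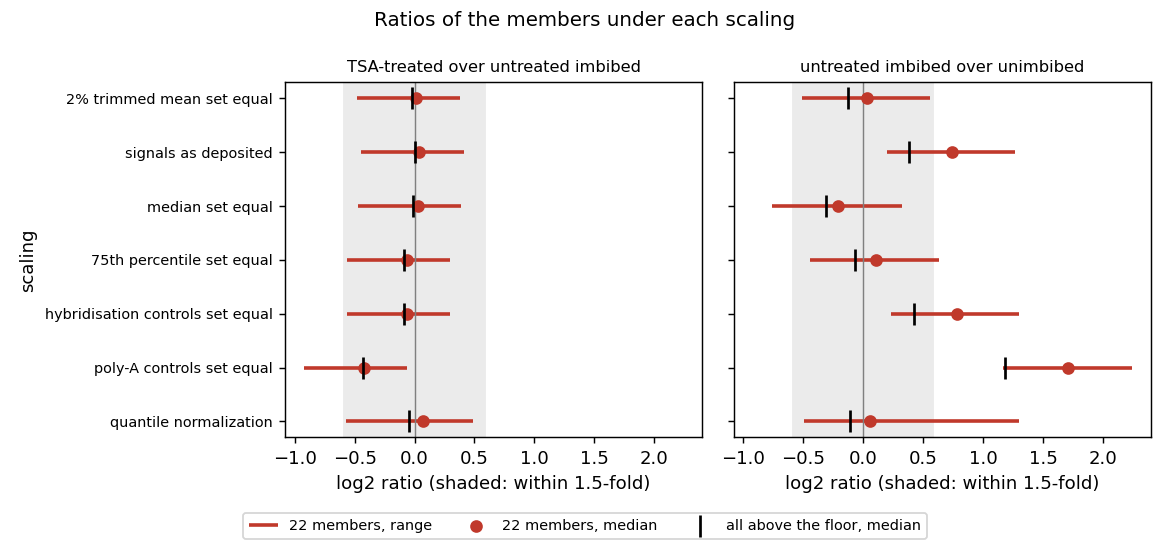
Median (point) and range (line) of the log2 ratios of the 22 members under each scaling, for TSA-treated over untreated imbibed seed on the left and untreated imbibed over unimbibed seed on the right, with the median of all probe sets above the floor as a black tick and the 1.5-fold limit shaded. On the left the members stay around 0 except with poly-A controls set equal, and on the right their median lies between -0.21 and 1.71.

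The state of the seed was as the labels give it by marker genes. Of 4 dry seed markers 2 could be measured, and both were lower in imbibed seed with and without TSA than in unimbibed seed, and higher with TSA than without it. The 2 measured seedling markers were higher in both. No endosperm marker of 5 and 1 seed coat marker of 5 could be measured, so the share of those tissues is not known. The ratio of 3′ to 5′ control signals, which reflects RNA integrity, was 4.31 with TSA, 4.66 without it and 1.82 in dry seed for actin by the first control set, and 1.43, 1.1 and 1.08 in the same order by the second. By the first set it was 2.71, 3.17 and 3.87 for ubiquitin and 1.5, 0.876 and 1.31 for GAPDH in that order, so the controls differ in which state is highest. The part of this in the members' signals was not tested.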

How the data were processed

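Total RNA of 3 seed samples was hybridised to 1 ATH1 array each. The authors deposited 1 intensity per probe set, linear in brightness. The submitters' processing notes name MAS5, without a version or scaling target. Each of the 3 columns carries its sample's name. The 64 AFFX controls were set apart, and the 2% trimmed means of the other signals were set equal. Ratios of list genes used signals raised to a floor at the 40th percentile, and a change was called at 2-fold. Names came from the platform annotation, updated by gene identifier through the RefSeq table of assembly TAIR10.1: 13513 probe sets had 1 gene, of which 13436 matched, 503 had several and 8730 none. Ribosomal protein genes (224 loci) were listed from general knowledge. The members and lists were chosen with earlier results of these data known. Fixed rules gave values on all 3 arrays for the brightest, steadiest, least steady and dimmest members and for list members. These came to cover all 22. The rule for genes just outside the limits was followed in part, and some of those genes are not printed. The number of arrays limits the precision, and no depth applies. Promoter sequence was not used here. The selection was run on simulated data with planted probe sets far inside both limits, and all of them were found. This checks the code only, not the limits or the scaling used here. Python 3.11.15 with pandas 2.3.3 and numpy 2.4.6 was used.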

Additional observations from a re-analysis of the deposited data

How the results depend on the processing

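The count of 22 was 53 with a brightness minimum of 200, 9 with 500, 12 with the tighter steadiness limit tried, 50 with a limit of 2, and 6 with unpaired probe sets left out. The other scalings, the classes kept in and plain probe sets alone gave 17 to 27, but the members changed: 0 of the 22 were selected with poly-A controls set equal, 4 as deposited, 5 with hybridisation controls, 17 with the median, 19 with quantile normalization and 21 with the 75th percentile. The members' median log2 ratio for untreated imbibed over unimbibed seed (0.03) was 0.74 as deposited, -0.21 with the median, 0.78 with hybridisation controls set equal and 1.71 when poly-A controls were. For TSA-treated over unimbibed seed (-0.03) it was 0.71, -0.26, 0.64 and 1.21 in the same order, and 0.19 with quantile normalization. For TSA-treated over untreated imbibed seed (0.01) it was -0.42 with poly-A controls. Ratios of the 4 named genes moved by more than the SD of the hybridisation controls in 36 of 72 recalculations. Quantile normalization and leaving out unpaired probe sets were chosen after seeing the data. The shares of promoters with motifs were not run, because no promoter sequence was used here. No paired analysis was possible because each group has 1 array and the result comes from no test. With 1 array per state no alternative can show the spread between seed batches.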
